A study of Homo sapiens with 12 samples.

Results

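The metallothionein genes MT2A, MT1A, MT1B, MT1E, MT1F, MT1G, MT1H, MT1M and MT1X were followed in THP-1 cells, an established human monocytic leukemia line. They were taken by gene symbol, which found 9 of the 62588 Ensembl genes in the expression tables, and all 9 passed the filter on low counts. RNA was sequenced in 12 libraries forming 4 groups of 3. These were untreated cells, cells given 3'-3'-cGAMP at 1 μg/mL, cells given chlorquinaldol at 20 μM and cells given chlorquinaldol at 50 μM, with all treatments lasting 8 h. The cyclic dinucleotide cGAMP activates the DNA-sensing adaptor STING and served as the positive control for antiviral signalling, whereas chlorquinaldol is a halogenated 8-hydroxyquinoline, a class of compounds that bind metal ions. All groups are 1 cell line. No vehicle is named for the untreated cells, and no origin is named for the replicates, so p-values measure only the spread between these samples.

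Metallothioneins are small cysteine-rich proteins that bind zinc, copper and cadmium through their thiol groups. Their genes are switched on when zinc or cadmium rises, chiefly through MTF1, a zinc-finger transcription factor that binds metal response elements upstream of them. Glucocorticoids, oxidative stress and cytokines can raise some of them as well. In monocytes and macrophages they are known as part of the zinc handling that accompanies activation.

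The 9 genes lie within 76.0 kb on the long arm of chromosome 16 (GENCODE 29, GRCh38). MT2A opens the cluster at chr16:56608199-56609497. MT1E follows at chr16:56625475-56627112, MT1M at chr16:56632233-56633986, MT1A at chr16:56638666-56640087 and MT1B at chr16:56651899-56653204. MT1F lies at chr16:56657694-56660698, MT1G at chr16:56666731-56668065, MT1H at chr16:56669814-56671129 and MT1X at chr16:56682424-56684196. MT1G lies on the minus strand and the other 8 on the plus strand.

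The coding sequences of MT2A, MT1M and MT1B are shown because these genes were, in untreated cells, the most abundant member, a member close to the detection limit and a member without a single count. They are from GENCODE 29 transcripts on GRCh38, and capitals mark the codons TGC and TGT, which encode cysteine.
MT2A: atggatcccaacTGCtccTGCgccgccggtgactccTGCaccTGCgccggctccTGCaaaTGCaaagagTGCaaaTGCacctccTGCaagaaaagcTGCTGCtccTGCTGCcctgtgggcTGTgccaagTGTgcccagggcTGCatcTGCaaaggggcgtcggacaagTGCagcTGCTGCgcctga
MT1M: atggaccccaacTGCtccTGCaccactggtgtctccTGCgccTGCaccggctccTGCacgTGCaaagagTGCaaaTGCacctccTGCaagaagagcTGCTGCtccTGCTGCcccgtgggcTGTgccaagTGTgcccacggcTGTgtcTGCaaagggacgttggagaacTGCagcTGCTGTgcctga
MT1B: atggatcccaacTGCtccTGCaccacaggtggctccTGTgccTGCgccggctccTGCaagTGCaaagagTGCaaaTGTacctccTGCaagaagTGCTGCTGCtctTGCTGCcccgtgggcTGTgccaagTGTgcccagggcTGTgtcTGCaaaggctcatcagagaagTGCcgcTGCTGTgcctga
Each of these 3 coding sequences has 186 bases, that is 61 codons before the stop. Of these codons 20 are TGC or TGT in MT2A and MT1M, and 21 in MT1B. The other members also have 61 codons with 20 such codons, except MT1G with 62 codons. Coding sequences of any pair of members were 88.4% (MT1B and MT1G) to 94.6% (MT1A and MT1E) identical, so reads from one gene could in part be assigned to another. Stretches of 50 bases shared with another metallothionein gene or pseudogene made up 0% of the transcript windows of MT1B, 3.02% of those of MT2A and 16.5% of those of MT1G. No member other than MT1H shared a stretch of 100 bases, and MT1H shared 1.39% of its windows with MT1HL1, which had 0 counts in every group.

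RefSeq (GRCh38.p14) supplied the 250 bases upstream of the start site for 4 of the 9 members, MT2A, MT1B, MT1H and MT1X. These bases are shown where they lie outside the annotated exons of the gene, because the metal response element is the site bound by MTF1. The core of that element was searched on both strands as TGCACNC or TGCGCNC, and matches are in capitals. All 3 stretches are on the plus strand.
MT1B, chr16:56651636-56651885: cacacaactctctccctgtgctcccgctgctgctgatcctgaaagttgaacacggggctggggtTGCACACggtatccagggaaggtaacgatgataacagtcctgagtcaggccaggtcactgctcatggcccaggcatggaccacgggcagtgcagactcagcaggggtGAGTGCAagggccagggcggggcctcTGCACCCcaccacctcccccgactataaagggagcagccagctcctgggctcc
MT1H, chr16:56669564-56669813: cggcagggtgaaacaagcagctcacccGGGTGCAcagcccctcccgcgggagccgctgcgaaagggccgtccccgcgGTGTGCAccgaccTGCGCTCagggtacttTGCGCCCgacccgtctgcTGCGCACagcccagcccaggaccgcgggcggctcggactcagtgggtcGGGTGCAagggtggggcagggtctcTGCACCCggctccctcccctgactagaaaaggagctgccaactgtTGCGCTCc
MT1X, chr16:56682220-56682423: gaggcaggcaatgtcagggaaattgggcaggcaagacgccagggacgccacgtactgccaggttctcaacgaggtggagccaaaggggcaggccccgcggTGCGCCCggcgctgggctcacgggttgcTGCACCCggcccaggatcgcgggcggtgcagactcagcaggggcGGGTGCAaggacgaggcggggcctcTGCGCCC
MT1H held 8 matches, MT1X 4 and MT1B 3. MT2A held 7 and its stretch is not printed, since it lies within the first exon of a longer annotated MT2A transcript. Of all 35116 promoters in the RefSeq table, 24.8% held at least 1 match, 1.58% at least 3, 0.37% at least 4, 0.0313% at least 7 and 0.0171% at least 8. A match at positions -53 to -47 from the start site was common to MT1B, MT1H and MT1X, and MT2A had a match at -54 to -48. The antioxidant response element core TGACNNNGC, known as a site of the oxidative stress factor NRF2, matched on either strand in MT2A, MT1B and MT1X and in 10.9% of all promoters. The TATA box TATAAA matched in the same 3 members, at positions -29 to -24 in MT2A and -30 to -25 in the other two, and in 10.7% of all promoters. The matches did not overlap one another. They describe the letters of these windows only.

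Libraries held 17620929 to 19222607 counts. The edgeR quasi-likelihood model was fitted to 16628 genes in all 12 libraries, and genes were called at a Benjamini-Hochberg adjusted p below 0.05. All 9 monocytic markers fixed for THP-1 were detected in every group. Of 25 markers of T and NK, B, epithelial, fibroblast and erythroid cells, 7 passed the filter, while the T cell gene CD3E, the B cell gene MS4A1 and the epithelial gene KRT19 were at or near 0. PAX5 was an exception among the B cell markers, at 1.00 CPM untreated and 55.2 CPM with cGAMP. CPM are counts scaled for library size and composition. In such bulk samples, fewer cells of a type and less RNA per cell cannot be told apart. All 5 interferon genes fixed as a check of cGAMP rose in cGAMP-treated cells, for example IFIT1 from 2.36 to 578 CPM.

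In untreated cells, levels per transcript length (FPKM) placed the 9 genes in 2 sets. MT2A stood at 198 ± 22.1 FPKM (SD, n = 3), MT1E at 95.7 ± 12.1, MT1F at 80.2 ± 6.90, MT1X at 78.9 ± 4.79 and MT1G at 42.1 ± 8.52. MT1A (1.77 ± 0.827 FPKM) and MT1M (0.637 ± 0.315 FPKM) were near the limit of detection, with 14 and 6 counts summed over the 3 libraries. MT1B and MT1H had 0 counts in all 3, and a count of 0 allows up to 3 counts over the group. In this order MT1E, MT1F and MT1X overlapped between neighbours, as did MT1A and MT1M, while MT2A was above all others in every library. MT2A, MT1E, MT1F, MT1X and MT1G had at least 10 counts in every library of every group. MT1A, MT1B, MT1H and MT1M passed the filter through the chlorquinaldol groups, so a difference was built into their passing. MT1H had at least 10 counts in 3 libraries at 20 μM and in only 1 at 50 μM.

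**Figure D1:**
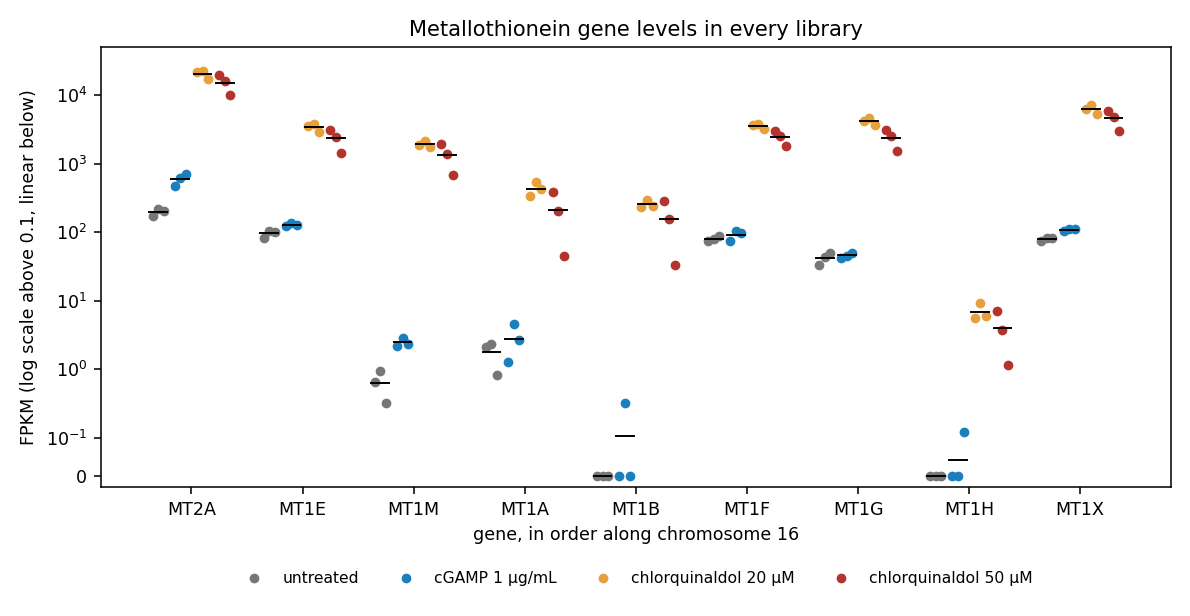
FPKM of each metallothionein gene in each of the 12 libraries, in order along chromosome 16, on an axis that is logarithmic above 0.1 and linear below. Points are libraries and short black lines are group means of 3. In all 9 genes the chlorquinaldol libraries lie above every untreated library, a separation not counted over all tested genes.

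Chlorquinaldol at 20 μM for 8 h was compared with no treatment to ask how the compound alters THP-1 transcription. All 9 metallothionein genes rose, against a background of 27.1% of tested genes called higher. No treated library overlapped an untreated one, but the share of all tested genes with such a separation was not counted. Among the 5 genes well measured before treatment, the increase ran from 39.0-fold for MT1E to 103-fold for MT2A. Among the 4 that were near or at 0, counts went from 0 to 14 over the untreated group to between 62 and 17461 over the treated group. These 4 passed the filter through the chlorquinaldol groups, so their calls are not independent of that choice.

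MT2A, the most abundant human metallothionein gene in most tissues, was at 27.8, 35.9 and 34.2 CPM in the untreated libraries and at 3632, 3714 and 2763 CPM with 20 μM. Its lowest treated library was far above its highest untreated library. The change was log2 6.69 ± 0.26 (SE, adjusted p = 9.64e-12).

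MT1X, an MT1 isoform gene expressed in many cell types, was at 12.5, 14.1 and 14.3 CPM untreated and at 1109, 1263 and 888 CPM with 20 μM. It rose by log2 6.32 ± 0.24 (79.7-fold, adjusted p = 8.37e-12). MT1G, the member with the extra codon, was at 5.33, 7.23 and 8.49 CPM and then at 725, 802 and 601 CPM. Its increase was log2 6.66 ± 0.25 (101-fold, adjusted p = 9.64e-12). Thus the least abundant of the 5 well-measured genes changed by a factor close to that of MT2A, and the 2 standard errors covered the gap between them.

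MT1E was at 30.9, 40.6 and 37.4 CPM untreated and at 1494, 1601 and 1146 CPM with 20 μM, a change of log2 5.28 ± 0.25 (adjusted p = 6.44e-11). MT1F was at 15.1, 17.3 and 18.2 CPM and then at 689, 726 and 567 CPM, a change of log2 5.29 ± 0.19 (adjusted p = 6.39e-12). These 2 genes had the smallest fold changes of the 5, more than 1 log2 unit under MT2A and MT1G. The difference in fold between genes was not tested.

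MT1M went from 0.101, 0.154 and 0.0518 CPM to 304, 352 and 268 CPM, the steepest fitted change among members with untreated counts (log2 11.47 ± 0.51, adjusted p = 3.69e-11). This fold rests on 2, 3 and 1 untreated counts. MT1A went from 0.302, 0.308 and 0.104 CPM to 47.0, 76.9 and 57.6 CPM (log2 7.95 ± 0.78, adjusted p = 2.17e-07). Both were all but silent in untreated cells and passed the filter through the chlorquinaldol groups. Their adjusted p-values therefore carry less weight than those of the well-measured genes. Under treatment MT1M lay below MT1E in FPKM and MT1A below MT1M, in every library.

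MT1B had 0 counts in the 3 untreated libraries and 706, 836 and 713 counts with 20 μM, at least 774-fold higher against a floor of 3 counts over the group. MT1H had 0 counts in the 3 untreated libraries and 18, 26 and 18 counts with 20 μM, at least 21.3-fold higher. MT1H was the lowest of the 9 in every chlorquinaldol library.

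Chlorquinaldol at 50 μM gave the same direction. All 9 genes rose against untreated cells, with 32.2% of tested genes called higher. Again no library overlapped between the groups, and the share of all tested genes with such a separation was not counted. For MT1H the separation rests on 1 count in replicate 3 against 0 untreated counts. The 5 well-measured genes rose 29.6-fold (MT1E), 30.02-fold (MT1F), 65.0-fold (MT1G), 65.1-fold (MT1X) and 85.8-fold (MT2A). For MT2A the 50 μM libraries held 3756, 2872 and 1769 CPM, a change of log2 6.42 ± 0.25 (adjusted p = 1.77e-12). MT1M reached 358, 246 and 118 CPM (log2 11.11 ± 0.51, adjusted p = 7.77e-12), and MT1A reached 63.7, 32.6 and 6.90 CPM (log2 7.13 ± 0.81, adjusted p = 5.34e-07). MT1B, with 869, 479 and 102 counts, was at least 528-fold higher than untreated, and MT1H, with 20, 9 and 1 counts, at least 10.9-fold higher. The lowest values of all 4 of these genes at 50 μM came from the same library. Their passing the filter through chlorquinaldol libraries limits their calls here as well. No alternative setting changed a call of any of the 9 genes against untreated cells at either dose.

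**Figure D2:**
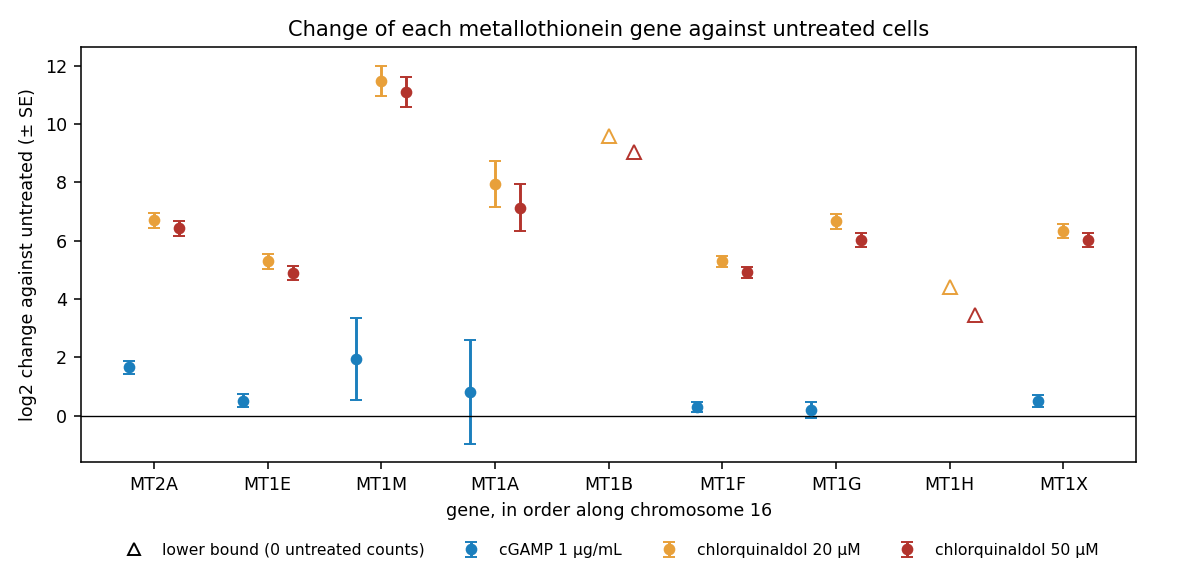
Log2 change of each gene against untreated cells for cGAMP, 20 μM and 50 μM chlorquinaldol, with SE bars from the edgeR fit. Open triangles are lower bounds for MT1B and MT1H, which had 0 untreated counts and for which no cGAMP value is drawn. The cGAMP values lie below both chlorquinaldol values in every gene that has all 3.

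The cGAMP group was compared with untreated cells as the positive control of antiviral signalling. Of the 9 genes only MT2A was called, against a background of 11.6% of tested genes called higher. MT2A was at 82.2, 109 and 117 CPM with cGAMP, and all 3 libraries were above the untreated ones. This was a 3.15-fold increase (log2 1.65 ± 0.21, adjusted p = 1.98e-05). In FPKM, MT2A rose from 198 ± 22.1 to 602 ± 116 (SD, n = 3).

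MT1E was at 48.6, 54.8 and 52.1 CPM with cGAMP, and its change of log2 0.52 ± 0.22 had an adjusted p of 0.1 although the groups did not overlap. MT1X was at 18.5, 20.0 and 19.1 CPM, likewise above every untreated library (log2 0.49 ± 0.22, adjusted p = 0.11). Both genes passed the threshold when 50 μM replicate 1 was left out of the shared model (adjusted p = 0.0305 for MT1E and 0.0348 for MT1X) and when 50 μM replicate 3 was left out (0.00562 and 0.00871). Those 2 libraries belong to neither group of this comparison and enter the model that all 12 libraries share. MT1F (log2 0.29 ± 0.18, adjusted p = 0.268) and MT1G (log2 0.19 ± 0.26, adjusted p = 0.639) overlapped with untreated cells. In a fit of the 2 compared groups alone, MT1E (adjusted p = 3.51e-05), MT1X (7.17e-05) and MT1F (0.0151) were called higher. Without a filter on low counts the 3 were called too (1.13e-06, 3.89e-05 and 0.0257).

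MT1M had 7, 9 and 7 counts with cGAMP against 2, 3 and 1 untreated, which gave log2 1.93 ± 1.41 (adjusted p = 0.354). It was called higher in DESeq2 (adjusted p = 0.0477), in edgeR without a filter (0.00791), and in limma on log2(FPKM + 1) (0.0182) and log2(FPKM + 0.1) (0.00232). MT1A overlapped between the groups (log2 0.82 ± 1.78, adjusted p = 0.784). MT1B and MT1H each had 1 count in the whole cGAMP group, at or under the floor, so no fold is given. The 95% interval of the log2 change was 1.20 to 2.11 for MT2A, 0.05 to 0.98 for MT1E and 0.04 to 0.95 for MT1X, and for MT1F and MT1G it ran from -0.09 to 0.66 and from -0.36 to 0.75.

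Against cGAMP-treated cells, all 9 genes were higher with 20 μM chlorquinaldol (27.6% of tested genes called higher) and with 50 μM (32% called higher). The difference for MT2A was log2 5.04 ± 0.24 (adjusted p = 2.06e-11) at 20 μM and 4.77 ± 0.23 (adjusted p = 1.39e-11) at 50 μM. MT1G, which showed no call with cGAMP, was log2 6.47 ± 0.25 and 5.83 ± 0.25 higher than with cGAMP. For MT1B, counts of 2255 and 1450 over the chlorquinaldol groups stood against 1 count with cGAMP, a ratio of 2.23e+03 (95% counting interval 400 to 8.81e+04) and 1.52e+03 (273 to 6.01e+04). For MT1H the ratios were 61.3 (10.6 to 2.46e+03) and 31.5 (5.23 to 1.28e+03). These comparisons share the chlorquinaldol libraries with those against untreated cells. The limit that the filter sets for MT1A, MT1B, MT1H and MT1M holds for them too.

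The make-up of the metallothionein transcript pool was described as each gene's share of the summed FPKM of the 9 genes. The pool itself grew from 438 to 530 FPKM in untreated libraries to between 822 and 1097 under cGAMP. It was between 34905 and 44648 FPKM at 20 μM and between 18612 and 37592 FPKM at 50 μM. In counts, the 9 genes took 0.00969% to 0.0119% of an untreated library and 0.669% to 0.856% of a library at 20 μM. At 50 μM they took 0.358% to 0.733%.

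MT2A made up 39.8% ± 0.966 (SD, n = 3) of the pool in untreated cells, 61.1% ± 3.19 with cGAMP, 50.6% ± 1.20 at 20 μM and 53.2% ± 0.632 at 50 μM. The 4 groups did not overlap in this share. MT1E went from 19.2% ± 0.549 untreated to 13.2% ± 1.63 under cGAMP. At 20 and 50 μM chlorquinaldol it made up 8.43% ± 0.0844 and 8.08% ± 0.391. MT1F went from 16.2% ± 1.00 to 9.38% ± 0.743 under cGAMP, and made up 8.78% ± 0.252 and 8.69% ± 0.913 at the 2 doses. These 2 genes thus held a smaller share in every treated library than in any untreated library.

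MT1X made up 15.9% ± 0.722 in untreated cells, 11.1% ± 1.20 under cGAMP, and 15.4% ± 0.624 and 16% ± 0.290 at the 2 doses. Its cGAMP libraries lay below every untreated library, and its chlorquinaldol libraries overlapped with untreated ones. MT1M, at 0.129% ± 0.0609 of the untreated pool, made up 4.76% ± 0.265 at 20 μM and 4.50% ± 0.770 at 50 μM. MT1G made up 8.42% ± 1.00 untreated, 4.70% ± 0.423 under cGAMP, 10.3% ± 0.265 at 20 μM and 8.36% ± 0.127 at 50 μM. MT1A reached 1.07% ± 0.244 and MT1B 0.634% ± 0.0744 at 20 μM, and MT1H stayed at or under 0.0204% in every library. Shares add up to a fixed total, so a gain in 1 gene lowers the others.

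In FPKM the order of the genes at 20 μM was MT2A (20570 ± 2697), MT1X (6278 ± 961), MT1G (4187 ± 478), MT1F (3562 ± 352), MT1E (3431 ± 460), MT1M (1931 ± 207), MT1A (433 ± 101), MT1B (257 ± 37.2) and MT1H (6.85 ± 1.96). MT1G, MT1F and MT1E overlapped between neighbours in that order, and the other neighbours did not overlap. MT1E, the second in untreated cells, was thus the fifth here, and MT1X, the fourth in untreated cells, was the second. At 50 μM MT2A (15250 ± 4929) and MT1X (4585 ± 1452) again led, each without overlap with the next gene. MT1F, MT1G, MT1E and MT1M followed with overlap between neighbours, from 2438 ± 589 FPKM down to 1343 ± 635.

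**Figure D3:**
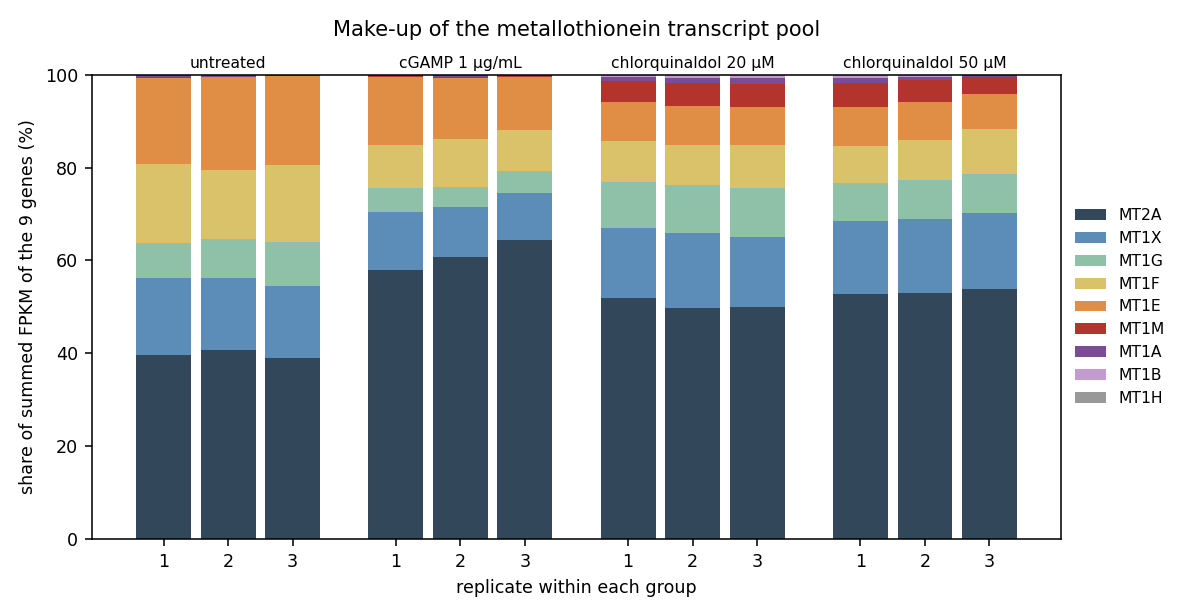
Share of each gene in the summed FPKM of the 9 metallothionein genes, in percent, for each of the 12 libraries. The MT2A segment is 38.9% to 40.8% untreated, 58.0% to 64.4% with cGAMP and 49.8% to 53.9% with chlorquinaldol, and the MT1M segment is visible with chlorquinaldol.

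The 2 doses were compared to ask whether the higher dose gave the larger response. None of the 9 genes was higher at 50 μM than at 20 μM. MT1G alone was called, lower at 50 μM by log2 -0.64 ± 0.19 (adjusted p = 0.0131), against a background of 19% of tested genes called lower. Its libraries held 725, 802 and 601 CPM at 20 μM and 607, 477 and 284 CPM at 50 μM, and the groups overlapped. The call was lost in DESeq2 (adjusted p = 0.0723) and without 20 μM replicate 2 (adjusted p = 0.0809).

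For the other 8 genes the estimated change from 20 to 50 μM was below 0 in each, with overlapping libraries. It was log2 -0.27 ± 0.20 for MT2A (95% interval -0.69 to 0.15, adjusted p = 0.313), and log2 -0.38 ± 0.15 for MT1F (-0.71 to -0.06, adjusted p = 0.0558). For MT1X the interval was -0.68 to 0.09, for MT1E -0.83 to 0.03, for MT1M -0.85 to 0.14, for MT1A -1.69 to 0.05 and for MT1B -1.44 to 0.35. For MT1H it was -2.13 to 0.22. MT1H had at least 10 counts in 3 libraries at 20 μM and in 1 at 50 μM, so its lower value was in part built into its passing the filter. The upper bounds of these 8 intervals thus lie between -0.06 and 0.35. The count of genes called lower moved from 1 to 9 of 9 when 50 μM replicate 1 was left out, and to 0 without 20 μM replicate 2.

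The 3 libraries at 50 μM differed more from each other in these genes than in most genes. Replicate 1 was the highest and replicate 3 the lowest for all 9, an order found in 21.6% of the 16628 tested genes. The ratio of the highest to the lowest library was 1.76 for MT1F, 2.12 for MT2A, 2.13 for MT1X, 2.14 for MT1G, 2.34 for MT1E and 3.04 for MT1M. It was 9.02 for MT1B (50.4, 26.3 and 5.58 CPM), 9.24 for MT1A and 21.2 for MT1H, where replicate 3 held a single count. The median ratio over the 14145 genes with a group mean of at least 1 CPM was 1.20. The 3 genes with a ratio above 9 are among the 4 that were near or at 0 in untreated cells.

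HMOX1 did not share this order, and SLC30A1 shared the highest library, with replicates 2 and 3 nearly equal. SLC30A1, the plasma membrane zinc exporter and a known MTF1 target, was at 385, 303 and 305 CPM in replicates 1, 2 and 3 of 50 μM, a ratio of 1.27. HMOX1, the heme oxygenase gene induced by oxidative stress, had the opposite order, with 2246, 2942 and 3819 CPM. Total counts of these 3 libraries were 19123052, 19222607 and 19011578. No batch is given for them, and what set replicate 3 apart was not tested. At 20 μM the highest-to-lowest ratios were 1.28 (MT1F) to 1.64 (MT1A and MT1H). There replicate 2 was the highest for all 9 genes and replicate 3 the lowest for all but MT1A.

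**Figure D4:**
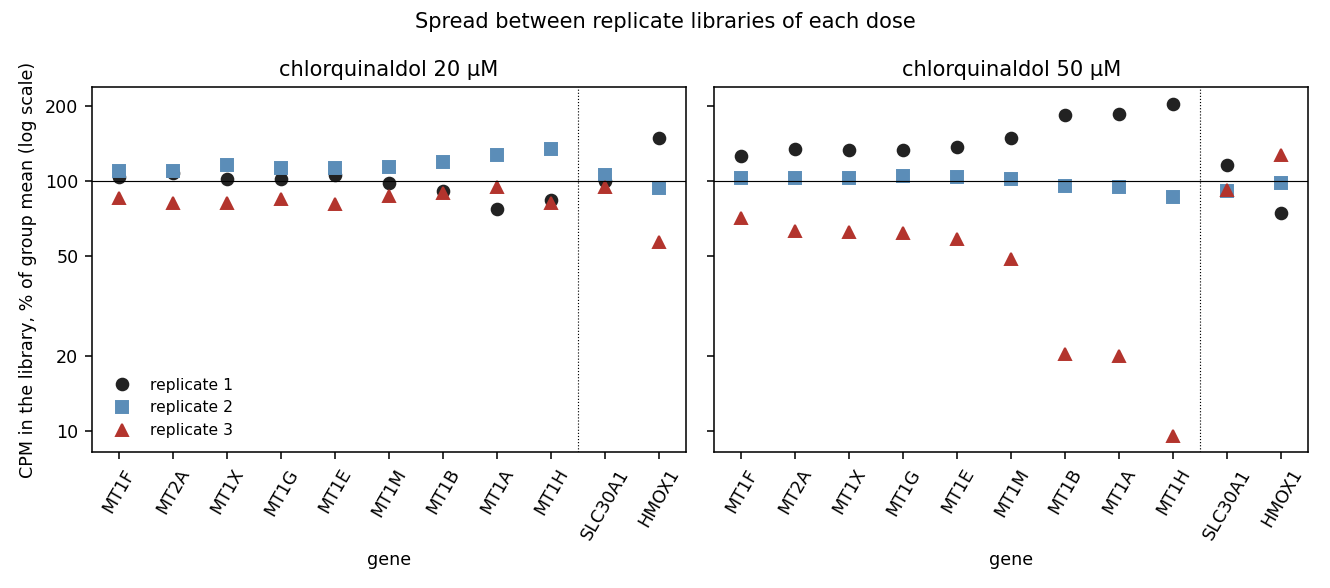
CPM in each replicate library as a percentage of its group mean, on a log axis, for the 9 metallothionein genes, SLC30A1 and HMOX1, at 20 μM (left) and 50 μM (right). At 50 μM replicate 3 is the lowest of the 3 in all 9 metallothionein genes, and the highest in HMOX1.

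Relatives of the 9 genes were read from the same tables. Of 11 entries for other metallothionein genes and pseudogenes 1 passed the filter. It is 1 of 2 entries with the pseudogene symbol MT1JP (ENSG00000290662) and has no position in GENCODE 29, while the other (ENSG00000255986), at chr16:56635739-56637086 within the cluster, had 0 counts in all 12 libraries. The first entry rose from 0.101, 0.308 and 0.0518 CPM to 12, 9.79 and 9.10 CPM at 20 μM (log2 6.01 ± 0.58, adjusted p = 1.91e-07). This fold rests on 2, 6 and 1 untreated counts. The entry passed the filter through the chlorquinaldol groups, so its call is not independent of that choice. At 50 μM it was at 13.3, 8.39 and 3.29 CPM, again highest in replicate 1 and lowest in replicate 3. MT1L had 0 counts in untreated and cGAMP-treated cells and 19 and 10 counts over the groups at 20 and 50 μM, at least 6.52-fold and 3.64-fold higher than untreated. MT3, the brain metallothionein, had at most 1 count in any group, and MT4, known from stratified epithelium, had 0 counts in all.

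Zinc transporters were described next, against backgrounds of 55.1% of tested genes called in either direction at 20 μM and 66.9% at 50 μM. Of 8 tested exporter genes of the SLC30 family, 5 rose and 0 fell at each dose, with a median log2 change of 1.31 at 20 μM and 1.56 at 50 μM (all tested genes, -0.0016 and -0.034). SLC30A1 was at 37.7, 41.5 and 44.6 CPM untreated and at 313, 331 and 296 CPM at 20 μM. SLC30A2, which loads zinc into vesicles, rose by log2 5.39 ± 0.30 at 20 μM and 5.83 ± 0.29 at 50 μM, from 0.119 to 5.26 and 7.15 CPM. With cGAMP, SLC30A1 stayed at 42.6, 39.7 and 44.3 CPM (log2 0.03 ± 0.10, adjusted p = 0.859).

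Of 11 tested importer genes of the SLC39 family, 2 rose and 8 fell at 20 μM, and 3 rose and 8 fell at 50 μM. SLC39A10, a plasma membrane zinc importer, fell by log2 -2.33 ± 0.12 and -2.50 ± 0.12 at the 2 doses. SLC39A14, which carries zinc, manganese and iron, fell by log2 -1.58 ± 0.12 and -1.21 ± 0.11. The 2 importer genes that rose at 20 μM also rose at 50 μM, SLC39A1 by log2 0.34 ± 0.09 and 0.85 ± 0.09 and SLC39A8 by log2 0.27 ± 0.10 and 0.29 ± 0.10. The share of exporter genes called was near the background for either direction. All exporter calls were rises, beside 27.1% of tested genes called higher at 20 μM and 32.2% at 50 μM. The filter limit of SLC30A2 and SLC30A4 holds for these calls too. Of the importer genes, a larger share was called than of all tested genes at each dose. The difference between the 2 families was not tested.

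Of 11 copper-handling genes, 3 rose and 3 fell at 20 μM, and 5 rose and 3 fell at 50 μM, which is near the background of all tested genes at each dose. ATP7A, the copper-exporting ATPase, rose by log2 1.71 ± 0.09 and 2.30 ± 0.09, while SCO2, a copper chaperone for cytochrome c oxidase, fell by log2 -1.44 ± 0.22 and -1.60 ± 0.23.

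Among 7 genes for transcription factors known at metallothionein promoters, 3 rose and 2 fell at 20 μM, and 5 rose and 1 fell at 50 μM, beside 55.1% and 66.9% of all tested genes called at these doses. The number called at 20 μM fell from 5 to 3 when any 1 untreated, 20 μM or 50 μM library was left out, and without cGAMP replicate 2. MTF1 itself was at 68.7, 63.9 and 66.1 CPM untreated and at 65.9, 69.5 and 71.2 CPM at 20 μM, a change of log2 0.06 ± 0.09 (adjusted p = 0.608). At 50 μM it rose to 158, 122 and 142 CPM (log2 1.09 ± 0.09, adjusted p = 5.7e-09). At 20 μM, where all 9 metallothionein genes rose, MTF1 levels overlapped with those of untreated cells. NR3C1, the glucocorticoid receptor gene, rose by log2 0.63 ± 0.08 and 1.14 ± 0.08, and SP1, a general activator, by log2 0.37 ± 0.07 and 0.65 ± 0.07.

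Stress and hormone targets were read for comparison. Of 11 oxidative and heat shock genes, 3 rose and 5 fell at 20 μM, and 6 rose and 5 fell at 50 μM (all tested genes called, 55.1% and 66.9%). At 50 μM the 6 that rose were the oxidative genes and the 5 that fell were the heat shock genes. Mean levels of these 5 were below untreated at 20 μM as well. DNAJB1 was at 238 CPM untreated, 124.6 at 20 μM and 137.3 at 50 μM, and HSPB1 at 228.9, 174.5 and 128.3 CPM. HMOX1 rose from 19.2, 19.1 and 16.8 CPM to 287, 182 and 110 CPM at 20 μM (log2 3.39 ± 0.28) and by log2 7.35 ± 0.33 at 50 μM. NQO1, an NRF2 target that reduces quinones, rose by log2 1.51 ± 0.09 and 2.25 ± 0.09. Between the doses HMOX1 rose by log2 3.96 ± 0.27 (adjusted p = 1.79e-08) and NQO1 by log2 0.75 ± 0.09 (adjusted p = 5.54e-06), whereas none of the 9 metallothionein genes rose. Of 5 tested glucocorticoid-induced genes, 4 rose and 1 fell at 20 μM, and 4 rose and 0 fell at 50 μM, beside the same 55.1% and 66.9%. TSC22D3, a classical glucocorticoid target, rose by log2 1.64 ± 0.12 and 1.71 ± 0.12, and DUSP1, a phosphatase of MAP kinases, by log2 1.30 ± 0.19 and 2.69 ± 0.19. The gene that fell at 20 μM was FKBP5, at 71.64 CPM untreated, 54.4 CPM at 20 μM and 68.23 CPM at 50 μM.

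The genes that flank the cluster did not follow it. On the MT2A side the estimate at 20 μM was log2 -0.11 ± 0.07 for BBS2, -1.13 ± 0.11 for OGFOD1 and -0.07 ± 0.07 for NUDT21. On the MT1X side it was log2 -0.85 ± 0.08 for NUP93, 0.35 ± 0.07 for HERPUD1, -1.24 ± 0.11 for NLRC5 and 0.60 ± 0.08 for CPNE2. Of these 7, 2 rose, 3 fell and NUDT21 and BBS2 were not called, beside 55.1% of all tested genes called. Even the largest rise, in CPNE2, was 1.52-fold, against 39.0-fold for the least induced of the 5 well-measured metallothionein genes. At 50 μM the 7 values ran from log2 -1.64 (NLRC5) to 0.68 (HERPUD1).

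**Figure D5:**
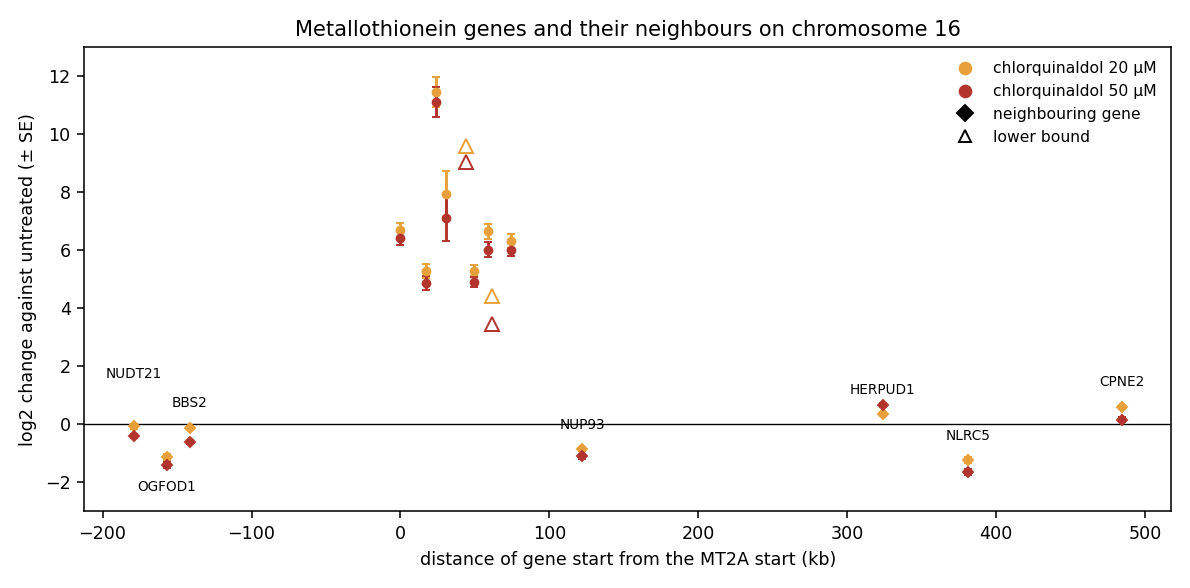
Log2 change against untreated cells, with SE bars, of the 9 metallothionein genes (circles, triangles for lower bounds) and of 7 neighbouring genes, 3 before and 4 after the cluster (diamonds), by distance of the gene start from the MT2A start in kb. The neighbours lie between log2 -1.64 and 0.68, and the metallothionein genes lie above 3.

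Genes whose levels followed the mean of the 9 over the 12 libraries were ranked by Pearson r of log2 CPM among 11372 genes. SGCB (r = 0.9917), CD59 (0.9917), SLC30A1 (0.9878), STAU2 (0.9867), STX7 (0.9858) and GLIPR1 (0.9856) came first. These r values are a description of 12 libraries that share 4 treatments, and 229 genes had an r above 0.95. SGCB, a sarcoglycan subunit gene, rose from 3.97 to 16.9 CPM at 20 μM and 14.2 CPM at 50 μM, and CD59, which blocks the complement membrane attack complex, from 12.4 to 63.2 and 70.2 CPM. With cGAMP neither was called (log2 0.10 ± 0.16 and 0.16 ± 0.17). Both genes were picked for following the members in these same libraries, so these changes are in part set by that choice.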

How the data were processed

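Poly(A) RNA was enriched with oligo(dT) beads and sequenced on DNBSEQ (BGI), per the labels' protocols. Per the submitters' processing notes, the authors made the estimated counts and the FPKM values with RSEM on GRCh38 before they were deposited, as 2 tables of 62914 entries each. DESeq2 1.26.0 is named in the submitters' processing notes, and its results are not used here. The RSEM version, annotation, strand setting and vehicle are not given in the sources used here.

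The 326 entries without an Ensembl ID (0.182% to 0.29% of counts) were left out, and 42219 of the 62588 others had a symbol. Of the count values above 0, 42.307% were not whole, and all were rounded. Genes were kept by filterByExpr at a minimum count of 10, libraries were scaled with TMM (factors 0.9048 to 1.061), and edgeR 4.0.16 in R 4.3.3 fitted 1 model of 12 libraries, with a script tested on simulated data. P-values are quasi-likelihood F tests adjusted by Benjamini-Hochberg over 16628 genes. Each SE is the log2 change over the square root of F, with 8 residual and 8.99 prior degrees of freedom. With 3 against 3 the smallest exact p of 1 gene alone is 0.1. All changes are relative to the bulk of genes. Counting intervals are 95% and cover counting error only.

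The members and lists were chosen with earlier results of these data known. Beside the 9 members, the genes named were up to 2 called genes per list with the largest change at 20 μM, plus MTF1, SLC30A1 and HMOX1, the tested genes nearest to the cluster (3 before and 4 after it), and the 6 genes most alike with at least 5 CPM in a group. Another gene near the cluster is not reported here. The marker genes, IFIT1, SLC30A4, SLC39A1, SLC39A8, DNAJB1, HSPB1, FKBP5, MT1L, MT3 and MT4 were named after their values were seen. Alternatives were another tool (DESeq2 1.42.0), other scaling (RLE, upper quartile), other filters (none, or 5 CPM in 3 libraries), fits of the compared groups alone, the replicate number as a block, limma 3.58.1 on log2(FPKM + 1) and log2(FPKM + 0.1), and each library left out.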

Additional observations from a re-analysis of the deposited data

How the results depend on the processing

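For each dose of chlorquinaldol against untreated and against cGAMP-treated cells, the alternatives kept the call and direction of each member they could test (197 values for each comparison at 20 μM and 196 for each at 50 μM). The number of members called with cGAMP, 1 of 9, became 2 with DESeq2, 5 without a filter, 4 of the 5 members tested with only the 2 groups compared, and 2 with limma on log2(FPKM + 1) and on log2(FPKM + 0.1), all higher. With a library left out it ran from 1 to 3. The number called between the doses, 1 of 9, became 0 with DESeq2, 2 with upper-quartile factors, 8 without a filter, 2 of 8 with at least 5 CPM in 3 libraries, and 3 with limma on either FPKM scale, all lower. With a library left out it ran from 0 to 9. The causes were not tested. MT1B without cGAMP replicate 2 and MT1H without cGAMP replicate 3 had 0 counts in both groups of the cGAMP comparison and gave no value. Limma on all genes with FPKM above 0 called 2038 genes with cGAMP against 3875. The higher share of all calls between the doses was 50.1%, and 33.3%, 31.9% and 36.8% with limma on log2(FPKM + 1), on log2(FPKM + 0.1) and on all FPKM genes. With cGAMP it was 49.6%, and 62.5% without a filter, 40.2% with upper-quartile factors, and 53.2% to 68.9% with a library left out, the latter without cGAMP replicate 2. Limma moved the median change of all genes at 50 μM from -0.03 to -0.16 at a pseudocount of 0.1. Over all the alternatives, the NUDT21 change at 20 μM ran from -0.090 to 0.039, with a change of sign.

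Replicate numbers did not pair the samples: same-numbered libraries of different groups had correlations of -0.11 to 0.07 in 18 pairs, and a library correlated best with its own number in 6 of 18. With the replicate block the dose comparison called 4 members, and the number called in the other comparisons stayed within 1.5 times. Untreated counts of 0 to 14 limit what can be said of the fold changes of MT1A, MT1B, MT1H and MT1M.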
